A study of Mus musculus with 8 samples.

Results

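The interferon regulatory factors (IRFs) are a family of transcription factors, and 8 of their genes were followed here: Irf1, Irf2, Irf3, Irf4, Irf5, Irf7, Irf8 and Irf9. They were chosen by name from a table of 23366 genes, with earlier results of these data known, and all 8 passed the filter on low values that kept 11919 genes. The data are RNA-seq of macrophages grown from mouse bone marrow. The series title links the kinase PKC alpha, the histone demethylase LSD1 and NF-kB to the inflammatory response. The 4 groups of 2 libraries each were Lsd1SA/SA knock-in with lipopolysaccharide (LPS, from bacterial outer membranes), Lsd1SA/SA knock-in untreated, wild type with LPS and wild type untreated. All were on a C57BL/6 background at passage 1, had been kept without serum for 24 h, and received LPS for 2 h where it was given. The LPS dose is labelled 1 mg/ml, far more than macrophages are usually given, so its unit is in doubt. The knock-in LPS samples name LPS in their treatment labels but not in their titles. The labels do not give the age or number of the mice. They also do not say that the 2 libraries of a group are from different cultures or mice, so the spread behind each p-value may be technical.

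IRFs bind GAAA-rich elements in the promoters of interferon and interferon-response genes. In macrophages, LPS acts through Toll-like receptor 4, whose TRIF branch leads to phosphorylation of IRF3 and to production of interferon beta. Interferon beta then acts through its receptor on ISGF3, a complex of STAT proteins and IRF9, which switches on a second set of genes that includes Irf7.

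The sequence just upstream of 3 of the genes is shown because Irf7 and Irf1 had the largest LPS changes of the family in the knock-in and in wild type, and because Irf2, which competes with Irf1, had the smallest span of levels. All 8 genes matched a RefSeq promoter window on GRCm38.p6, from 250 bases before to 50 bases after the start site, with 11 windows in all. Each sequence runs 5′ to 3′ on the strand of its gene, and capitals mark matches to the 3 motifs searched on both strands.

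Irf1 (chr11:53769764-53770063, plus strand): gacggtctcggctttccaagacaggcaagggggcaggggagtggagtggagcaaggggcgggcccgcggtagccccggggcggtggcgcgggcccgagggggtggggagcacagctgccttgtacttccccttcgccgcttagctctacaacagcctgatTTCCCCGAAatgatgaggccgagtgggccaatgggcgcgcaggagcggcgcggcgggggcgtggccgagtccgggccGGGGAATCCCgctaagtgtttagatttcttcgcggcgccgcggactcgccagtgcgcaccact

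Irf2 (chr8:46739495-46739794, plus strand): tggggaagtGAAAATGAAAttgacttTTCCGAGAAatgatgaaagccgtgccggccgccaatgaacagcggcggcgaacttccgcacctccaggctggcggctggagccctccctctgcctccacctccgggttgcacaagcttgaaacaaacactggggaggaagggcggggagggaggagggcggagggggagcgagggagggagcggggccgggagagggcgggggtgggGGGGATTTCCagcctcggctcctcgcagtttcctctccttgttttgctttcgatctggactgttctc

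Irf7 (chr7:141266375-141266674, minus strand): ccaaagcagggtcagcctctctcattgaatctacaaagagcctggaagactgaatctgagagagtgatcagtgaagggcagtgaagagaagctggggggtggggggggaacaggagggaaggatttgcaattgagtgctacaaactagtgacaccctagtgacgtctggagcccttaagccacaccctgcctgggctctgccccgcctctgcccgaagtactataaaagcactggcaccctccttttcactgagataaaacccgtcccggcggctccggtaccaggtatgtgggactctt

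The motifs were GAAA followed by any 2 bases and GAAA again, a core of the interferon-stimulated response element bound by ISGF3 and IRFs, then TTCNNNGAA, the gamma-activated element bound by STAT dimers, and the NF-kB consensus. The printed Irf1 window held a STAT element that begins at position -90 from the start site and an NF-kB match at -13 that reads on both strands. The Irf2 window held an interferon-stimulated response element at -241, a STAT element at -224 and an NF-kB match at -17. No match was found in the Irf7 window or in any window of Irf3, Irf4, Irf5 and Irf9 (not printed). The first Irf8 window (not printed) held STAT elements at -171 and -153. Irf1 and Irf8 each had a second window, and neither of these held a match. Of 32841 RefSeq windows of the same length, 3.44% held the GAAA pair, 8.3% held TTCNNNGAA and 4.51% held the NF-kB consensus. These matches describe the letters of the windows only.

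Reads counted over the genes of the table, as recovered from its values, summed to 40379258 to 55595160 per library. Macrophage markers were high in every library, with summed levels of 12235 to 12885 in knock-in LPS libraries and 13961 to 17962 in the other 6. Lyz2 was the largest part of these sums, and the markers did not move together. With LPS, 2 of the 9 tested were higher in the knock-in than in wild type and 7 were lower. The shares over all genes were 38.5% higher and 36.8% lower. The knock-in LPS libraries stood apart in other ways. All 4 Y-linked genes measured (Ddx3y, Eif2s3y, Kdm5d, Uty) had 499 to 1920 reads in them, against 0 to 2 reads in the other 6 libraries. Xist, the RNA of the inactive X chromosome, had 19 and 12 reads in them, against 15869 to 20965 in the others. Stromal markers summed to 56.2 and 56.4 in the knock-in LPS libraries and to 13.9 to 17.7 in the others. All 6 that could be tested rose with LPS in the knock-in. With LPS, 5 of the 6 were higher in the knock-in than in wild type and 1 was lower. The lower one was Pdgfrb, at 1.66 and 1.98 in knock-in LPS against 3.54 and 3.96 in wild-type LPS libraries. Conventional dendritic cell markers summed to 5.52 and 5.96 in the knock-in LPS libraries and to 36.5 to 51.9 in the others. Most of that sum was Itgax. The rest of that list had few reads. Cd209a was at 0 reads in 7 of the 8 libraries, Flt3 had at most 10 reads in any and Clec9a at most 26. Ccr7, Xcr1 and Zbtb46 were highest with LPS in wild type, where they reached 104, 109 and 51 reads. Every comparison below that uses the knock-in LPS libraries therefore also sets cells with Y-linked reads against cells without them, and the part of this, of the stromal markers and of Itgax in the results was not tested. The differences between wild type with LPS and wild type untreated, and between the untreated genotypes, do not use those libraries. The filter and the pooled spread behind their p-values do. A refit without the knock-in LPS libraries changed no call of a member in these comparisons. Neutrophil markers moved with LPS in both genotypes. They summed to 517 and 533 in knock-in LPS against 408 to 418 in knock-in untreated libraries, and to 749 and 775 in wild-type LPS against 404 to 418 in wild-type untreated libraries. Of the 8 tested, 6 rose with LPS in each genotype, where 28.5% of all genes rose in the knock-in and 26.8% in wild type. None of these markers was at 0 reads. All 3 dendritic cell markers that could be tested also rose with LPS in wild type. The part of these markers in the LPS results was not tested. In bulk samples, fewer cells of a type and less RNA per cell cannot be told apart.

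Kdm1a, which encodes LSD1, was read at 39.3 and 40.4 in knock-in LPS, 33.7 and 32.6 in knock-in untreated, 47.3 and 45.8 in wild-type LPS and 33.9 and 31.1 in wild-type untreated libraries. Its transcript level does not check the knock-in allele.

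With LPS, Irf1, Irf4 and Irf5 were highest in wild type, whereas Irf7 and Irf9 were highest in the knock-in. All levels are scaled CPM (read counts scaled to library size, taken to be by TMM). They are not corrected for gene length, so they are compared between libraries and not between genes. Changes are log2 differences of value + 1, tested with limma over the 11919 genes, and a gene was called where its p, after Benjamini-Hochberg adjustment, was under 0.05. In the knock-in, LPS raised 5 members (Irf1, Irf3, Irf5, Irf7, Irf9) and lowered 1 (Irf4), against 28.5% of all genes called higher and 28.3% called lower (56.7% in all). In wild type, LPS raised 4 members (Irf1, Irf3, Irf4, Irf5) and lowered 2 (Irf7, Irf8), against 26.8% of all tested genes called higher and 30.7% called lower (57.6% in all). The median log2 change of the members was 0.28 in the knock-in and 0.17 in wild type, against medians over all genes of 0.02 in the knock-in and -0.03 in wild type. The libraries with LPS did not overlap those without it for 7 of 8 members in each genotype, and that held for 79.2% of all genes in the knock-in and 76.1% in wild type. The share of calls in wild type that were higher was 46.6% as deposited and 35.4% after quantile normalization.

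**Figure D1:**
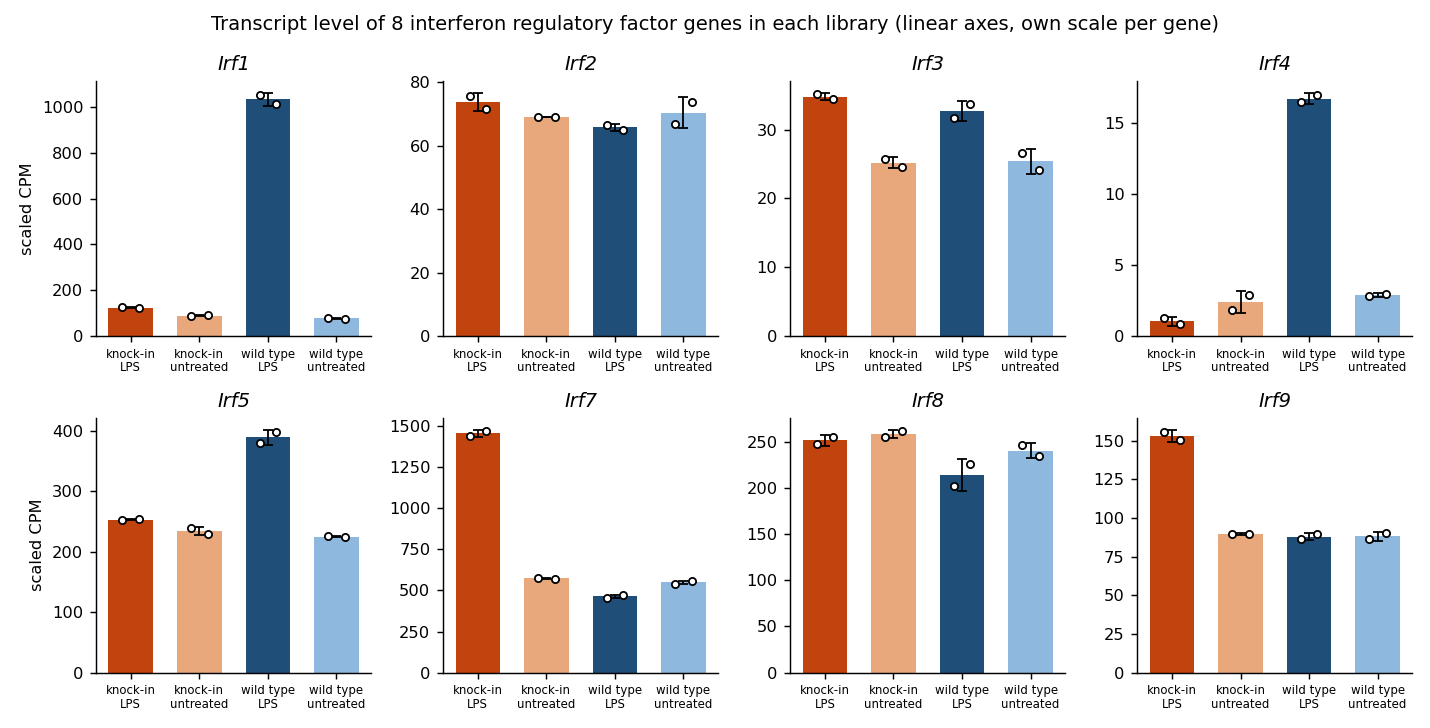
Level of each of the 8 genes (scaled CPM, linear axes from 0, each with its own scale) in the 4 groups. Points are single libraries, bars are means and error bars are SD (n = 2). Irf1, Irf4 and Irf5 were highest in wild-type LPS libraries, and Irf7 and Irf9 were highest in knock-in LPS libraries.

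Irf1 encodes an activator that is itself induced by inflammatory signals and by interferon gamma. It stood at 125.0 and 121.7 in knock-in LPS libraries and at 87.1 and 89.4 in knock-in untreated libraries. Wild-type libraries had 1054 and 1015 with LPS, against 79.2 and 75.1 untreated. Both wild-type LPS libraries were far above the other 6, the knock-in LPS libraries came next, and no 2 of the 4 groups overlapped. LPS raised Irf1 in both genotypes, by 0.48 on the log2 scale in the knock-in (95% interval 0.38 to 0.58, limma adjusted p = 8.70e-09) and by 3.73 in wild type (3.63 to 3.83, limma adjusted p = 1.03e-26). The mean with LPS was 1.40 times the untreated mean in the knock-in and 13.4 times in wild type. With LPS, Irf1 averaged 123.4 ± 2.29 in the knock-in and 1034 ± 27.2 in wild type (SD, n = 2 each), a difference of -3.06 (limma adjusted p = 5.76e-25). Among 11919 genes ordered by signed change in wild type, from the largest rise down, Irf1 was at rank 96.

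Irf2 encodes a factor that competes with IRF1 for the same sites. Its level was 75.8 and 71.7 in knock-in LPS, 69.1 and 69.2 in knock-in untreated, 66.6 and 65.1 in wild-type LPS, and 67.0 and 73.9 in wild-type untreated libraries. The group means spanned only 0.16 on the log2 scale, the smallest span of the 8 genes. LPS gave a difference of 0.09 in the knock-in (95% interval -0.03 to 0.21, limma adjusted p = 0.187) and of -0.09 in wild type (-0.21 to 0.03, limma adjusted p = 0.170), and neither passed. With LPS, Irf2 was higher in the knock-in than in wild type by 0.16 (limma adjusted p = 0.0153). That call was lost with edgeR (adjusted p = 0.0638), with DESeq2 (0.0547), without the first knock-in LPS library (0.147) and without the second wild-type LPS library (0.0797), in a range of 7.35e-05 to 0.147 over all settings. After quantile normalization Irf2 fell with LPS in wild type by 0.27 (limma adjusted p = 3.68e-04), as it did without the first untreated wild-type library, by 0.16 (0.0315), in a range of 3.68e-04 to 0.779.

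The balance of the activator to its competitor was read as the log2 ratio of Irf1 to Irf2 in each library and is given as a description, with no test. It was 0.71 and 0.76 in knock-in LPS, 0.33 and 0.37 in knock-in untreated, 3.96 and 3.94 in wild-type LPS, and 0.24 and 0.02 in wild-type untreated libraries. Both wild-type LPS libraries were above all others, and each knock-in LPS library was above every untreated one. The ratio is read only between libraries, since the genes differ in length.

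Irf3 encodes the factor that TBK1 phosphorylates downstream of TRIF, which acts first in interferon beta induction. It was at 35.2 and 34.5 in knock-in LPS and 25.8 and 24.6 in knock-in untreated libraries. The wild-type libraries were at 31.7 and 33.7 with LPS, against 26.7 and 24.1 untreated. All 4 LPS libraries were above all 4 untreated ones. LPS raised Irf3 by 0.45 in the knock-in (95% interval 0.31 to 0.60, limma adjusted p = 9.05e-06) and by 0.35 in wild type (0.21 to 0.50, limma adjusted p = 1.50e-04). With LPS the difference between knock-in and wild type was 0.09 (-0.06 to 0.23, limma adjusted p = 0.271), and it did not pass. Irf3 overlaps the exons of Bcl2l12 on the other strand, and no source used here says whether counting used strand. Bcl2l12 was at 4.63 in the knock-in and 3.24 in wild type with LPS.

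Irf7 encodes the factor that amplifies interferon production after the first interferon beta has been made. It was at 1440.4 and 1471 in knock-in LPS and at 576 and 572 in knock-in untreated libraries. In wild type it was at 457 and 470.0 with LPS, against 540.3 and 557 untreated. Knock-in LPS libraries were above all others, and wild-type LPS libraries were below all others. LPS raised Irf7 by 1.34 in the knock-in (95% interval 1.25 to 1.43, limma adjusted p = 7.10e-18), to 2.54 times the untreated mean. LPS lowered it by 0.24 in wild type (log2 change -0.24, interval -0.33 to -0.15, limma adjusted p = 4.61e-05), and by 0.66 after quantile normalization (log2 change -0.66). With LPS, Irf7 averaged 1456 ± 22.0 in the knock-in and 463 ± 9.40 in wild type (SD, n = 2 each), which is 3.14 times as high (log2 difference 1.65, limma adjusted p = 2.22e-20). Irf7 overlaps Phrf1 on the other strand, and Phrf1 rose by 0.28 in the knock-in and by 0.30 in wild type.

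Irf9 encodes the DNA-binding subunit of ISGF3. It was at 155.8 and 150.4 in knock-in LPS libraries, against 89.4 and 89.9 in knock-in untreated libraries. In wild type it was at 86.2 and 89.4 with LPS, against 86.1 and 90.1 untreated. Only the knock-in LPS libraries stood away from the rest, whose 6 values lay between 86.1 and 90.1. LPS raised Irf9 by 0.77 in the knock-in (95% interval 0.66 to 0.87, limma adjusted p = 4.76e-12). In wild type the difference was -0.01 (-0.11 to 0.10, limma adjusted p = 0.941), and after quantile normalization it was called lower, at -0.25 (limma adjusted p = 1.89e-04, in a range of 1.89e-04 to 0.972 over all settings). With LPS, Irf9 was 1.74 times as high in the knock-in as in wild type (log2 difference 0.80, limma adjusted p = 8.44e-13). Irf9 shares exon bases with Rnf31 on the same strand. Rnf31 rose by 0.89 in the knock-in and by 0.37 in wild type, and how reads were divided between these genes is not given in the sources used here.

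**Figure D2:**
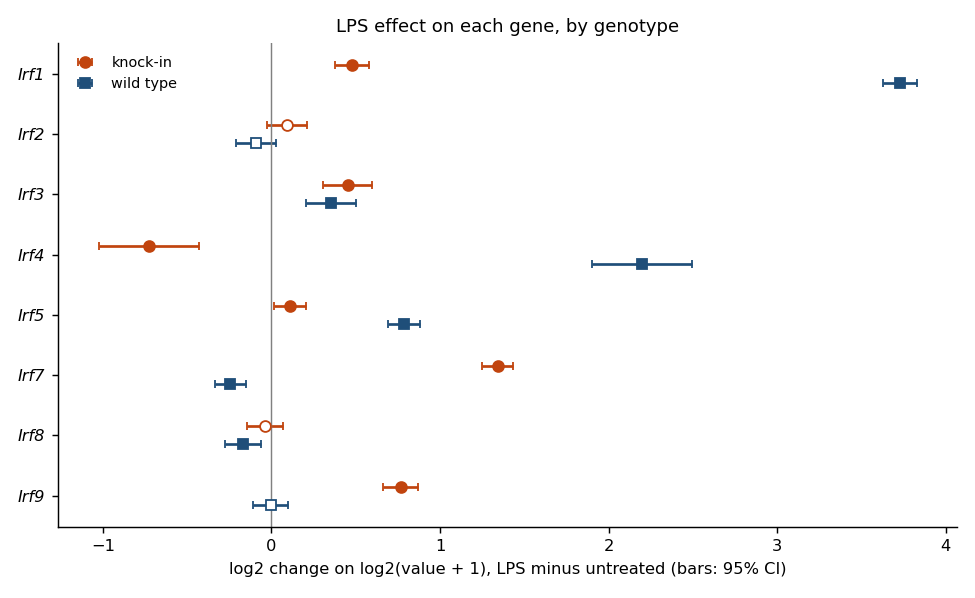
LPS effect on each gene (log2 difference of value + 1, LPS minus untreated) in knock-in (circles) and wild type (squares), with 95% intervals from limma; filled symbols passed an adjusted p under 0.05. Irf1 changed by 0.48 in the knock-in and 3.73 in wild type, and Irf7 by 1.34 in the knock-in and -0.24 in wild type.

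Irf5 encodes a factor that acts downstream of MyD88 and is tied to inflammatory cytokine genes in macrophages. Its level was 252.8 and 253.6 in knock-in LPS and 239.6 and 229.1 in knock-in untreated libraries. Wild-type levels were 380.4 and 398 with LPS, against 226 and 225 untreated. The wild-type LPS libraries were above all others, and the remaining 6 lay between 225 and 254. LPS raised Irf5 by 0.79 in wild type (95% interval 0.69 to 0.88, limma adjusted p = 1.98e-13), a change of 0.33 after quantile normalization. In the knock-in its change was 0.11 (0.02 to 0.21, limma adjusted p = 0.0408), a call that did not hold with no filter (0.0502), after quantile normalization (0.478), with edgeR (0.0757), or without either knock-in LPS library (0.121 and 0.137) or the second untreated one (0.273). Over all settings that p ranged from 0.0217 to 0.478. With LPS, Irf5 was lower in the knock-in by 0.62 (log2 difference -0.62, limma adjusted p = 1.37e-11), and quantile normalization gave -0.25. Irf5 overlaps Tnpo3 on the other strand, which was at 39.0 in the knock-in and 57.3 in wild type with LPS.

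Irf4 encodes a lymphoid and myeloid factor that is linked to alternative activation of macrophages. It was the lowest of the 8 in reads, with 65 and 46 reads in knock-in LPS, 81 and 158 in knock-in untreated, 656 and 753 in wild-type LPS, and 150 and 128 in wild-type untreated libraries. The levels were 1.25 and 0.812 in knock-in LPS, 1.86 and 2.92 in knock-in untreated, 16.5 and 17.0 in wild-type LPS, and 2.78 and 2.96 in wild-type untreated libraries. The wild-type LPS libraries were above all others and the knock-in LPS libraries below all others. LPS lowered Irf4 in the knock-in (log2 change -0.73, 95% interval -1.02 to -0.43, limma adjusted p = 1.47e-04) and raised it in wild type (2.20, 1.90 to 2.49, limma adjusted p = 2.04e-12). With LPS, mean Irf4 was 16.2 times as high in wild type as in the knock-in, and the log2 difference was -3.14 (limma adjusted p = 1.21e-15). At these levels the added 1 shrinks the change. On the reads, the change in the knock-in was -1.25 with edgeR and -1.22 with DESeq2. With 5 added in place of 1, it was -0.29 in the knock-in, and the difference with LPS was -1.85.

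Irf8 encodes a lineage factor of monocytes and macrophages that pairs with PU.1. It was at 247.8 and 256 in knock-in LPS, 255 and 262 in knock-in untreated, 202 and 226 in wild-type LPS, and 247 and 235 in wild-type untreated libraries. Both wild-type LPS libraries were below the other 6. LPS gave -0.04 in the knock-in (95% interval -0.15 to 0.07, limma adjusted p = 0.555). In wild type it lowered Irf8 (log2 change -0.17, -0.28 to -0.06, limma adjusted p = 0.00767), and quantile normalization gave -0.60. That call was lost without the first wild-type LPS library (-0.09, limma adjusted p = 0.223) and without the first untreated wild-type library (-0.13, 0.0607), in a range of 1.48e-09 to 0.223 over all settings. With LPS, Irf8 was higher in the knock-in by 0.23 (limma adjusted p = 2.98e-04), by 0.15 without the first wild-type LPS library and by 0.57 after quantile normalization.

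Without LPS, none of the 8 genes was called between knock-in and wild type. The differences ran from -0.21 for Irf4 (95% interval -0.51 to 0.09, limma adjusted p = 0.530) to 0.19 for Irf1 (0.09 to 0.29, limma adjusted p = 0.127). Irf1 averaged 88.3 ± 1.68 in the untreated knock-in and 77.2 ± 2.91 in untreated wild type (SD, n = 2 each), and it was called higher with DESeq2 (0.19, adjusted p = 0.0427) and without the first untreated wild-type library (0.23, limma adjusted p = 0.0165), in a range of 0.0165 to 0.858. The interval of every other member lay within -0.16 and 0.21. Of all 11919 genes, limma called 0.00839% higher and 0 lower, with 1617 at an unadjusted p under 0.05, edgeR called 1, and DESeq2 called 27 higher and 37 lower. Untreated libraries of the genotypes did not overlap for 4 of 8 members, against 43.9% of all genes.

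With LPS, 4 members were higher in the knock-in than in wild type (Irf2, Irf7, Irf8, Irf9) and 3 were lower (Irf1, Irf4, Irf5), against 38.5% of all genes called higher and 36.8% called lower (75.4% in all). For all 8 members the libraries of the genotypes did not overlap, as for 87.4% of all genes. Since most genes were called between these groups, the number of members called is near the background.

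**Figure D3:**
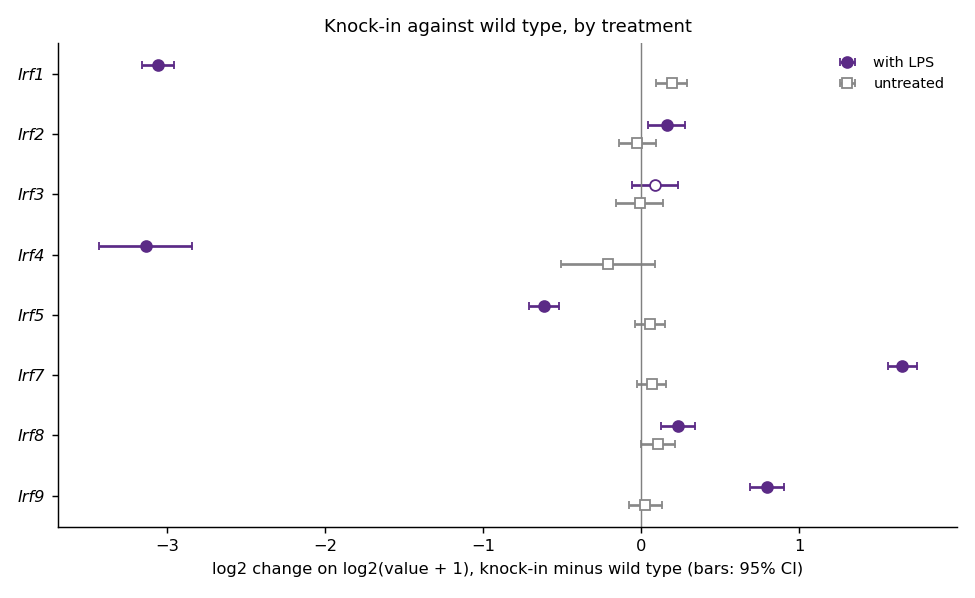
Difference between knock-in and wild type for each gene (log2 of value + 1, knock-in minus wild type) with LPS (circles) and untreated (squares), with 95% intervals from limma; filled symbols passed an adjusted p under 0.05. With LPS the differences ran from -3.14 for Irf4 to 1.65 for Irf7, and no untreated difference passed.

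Whether the LPS effect differed between genotypes was tested as an interaction (knock-in effect minus wild-type effect). It was called lower for 3 members and higher for 2, against 31.8% of all genes in each direction (63.7% in all). The lower ones were Irf1 (-3.25, 95% interval -3.39 to -3.11, limma adjusted p = 4.88e-22), Irf4 (-2.92, -3.34 to -2.51, limma adjusted p = 8.43e-12) and Irf5 (-0.67, -0.81 to -0.54, limma adjusted p = 2.99e-09). The higher ones were Irf7 (1.58, 1.46 to 1.71, limma adjusted p = 1.26e-16) and Irf9 (0.77, 0.62 to 0.92, limma adjusted p = 1.86e-09). Irf3 did not pass (0.10, -0.11 to 0.30, limma adjusted p = 0.410), nor did Irf8 (0.13, -0.02 to 0.28, limma adjusted p = 0.125) or Irf2 (0.18, 0.02 to 0.35, limma adjusted p = 0.0519). Irf8 was called after quantile normalization (0.49, limma adjusted p = 4.07e-06) and without the second wild-type LPS library (0.21, 0.020), in a range of 4.07e-06 to 0.591 over all settings. Irf2 was called after quantile normalization (0.31, limma adjusted p = 0.00213), without the second knock-in LPS library (0.22, 0.0482) and without the first untreated wild-type library (0.25, 0.00910), in a range of 0.00213 to 0.229. Each of these effects rests on the knock-in LPS libraries, which also carried the Y-linked reads, and genotype cannot be told apart from that difference.

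The genes that lie before and after the IRFs in these pathways were followed in 8 lists, which share some genes. The median log2 change over all genes tested was 0.02 in the knock-in and -0.03 in wild type. No gene of any list was called between the untreated genotypes, against 0.00839% of all genes. LPS raised 28.5% and lowered 28.3% of all genes in the knock-in, and raised 26.8% and lowered 30.7% in wild type. With LPS, 38.5% of all genes were higher in the knock-in than in wild type and 36.8% were lower. These shares are the background for the counts of every list, and a count near them is not particular to its list. Each rise or fall given below for a gene named singly passed limma's test, with the highest adjusted p at 0.0227 (Usp18 in wild type). The counts of a list hold every gene with an adjusted p under 0.05. Of 25 receptors, adaptors and kinases upstream of IRF3 and IRF7, LPS raised 18 and lowered 1 in the knock-in (median 0.28) and raised 15 and lowered 7 in wild type (median 0.35). Cd14, the LPS co-receptor, was at 67.3 and 65.1 in knock-in LPS libraries against 136 and 130.2 in knock-in untreated ones, a fall with limma adjusted p = 1.39e-14, and at 1348 and 1421 in wild-type LPS libraries against 133 and 126 untreated (3.41). Ddx58, which encodes the RNA sensor RIG-I, rose by 1.52 in the knock-in and by 0.19 in wild type, whereas Ifih1, which encodes the sensor MDA5, rose by 1.26 in the knock-in and by 2.76 in wild type. Tlr9, a receptor for DNA, rose by 0.90 in the knock-in and fell in wild type (-0.69).

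Interferon beta itself, Ifnb1, had 24 and 32 reads in knock-in LPS libraries, against 2 and 0 reads untreated. In wild type it had 1807 and 1902 reads with LPS, against 0 reads in both untreated libraries, which makes it at least 707-fold higher on a floor of 3 reads per library. Among values of 1 to 10 reads only 25.5% to 28.0% were odd, so mates of a pair may have been counted separately, and the bound would then be too high. Of the 16 genes of interferon receptors and JAK-STAT signalling, which include Ifnb1, LPS raised 11 and lowered 2 in the knock-in (median 0.33) and raised 13 and lowered 1 in wild type (median 0.46, also with Ifnb1 at its bound). Stat2, which encodes an ISGF3 subunit, rose in the knock-in, as Irf9 did, and fell in wild type (-0.44). Stat2 was at 364 and 359.6 in knock-in LPS libraries and at 92.0 and 94.2 in wild-type LPS libraries, a log2 difference of 1.95 (limma adjusted p = 4.89e-21). Socs3, an inhibitor of JAK-STAT signalling, was at 5.38 and 5.56 in knock-in LPS libraries, against 969 and 955 in wild-type LPS libraries. Usp18, which restrains the interferon receptor, rose by 3.06 in the knock-in and by 0.19 in wild type.

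All 26 ISGF3 and IRF3 targets rose with LPS in the knock-in (median 1.96), and 21 rose with none lower in wild type (median 0.89). Between genotypes with LPS, 16 were higher in the knock-in and 9 lower, against 38.5% and 36.8% of all genes. Oas3, an antiviral enzyme, was at 955 and 932 in knock-in LPS libraries against 194 and 196 in wild-type LPS libraries. Ifit3, which binds viral RNA with its relatives, was at 804 and 795 in knock-in LPS libraries against 197 and 226 in wild-type ones. Rsad2, which encodes viperin, went the other way, with 443 and 429 in knock-in LPS libraries against 1712 and 1896 in wild-type ones. The chemokine Cxcl10 was at 3.55 and 3.14 in knock-in LPS libraries against 1037 and 1127 in wild-type ones. The list therefore did not differ in one direction between the genotypes.

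Of 19 IRF1-linked genes, LPS raised 16 and lowered 2 in the knock-in (median 0.83) and raised 15 with none lower in wild type (median 1.24). With LPS, 7 were higher and 11 lower in the knock-in than in wild type (median -1.15). Gbp5, a guanylate-binding protein, was at 17.8 and 18.3 in knock-in LPS libraries against 434 and 466 in wild-type ones, and the cytokine gene Il27 was at 1.79 and 1.75 in knock-in LPS libraries against 156 and 178 in wild-type ones. All 7 IRF5-linked cytokine genes rose in wild type (median 5.66, or 6.22 with Il23a at its bound), and 2 of 7 (Tnf and Ccl4) rose in the knock-in (median 0.08). With LPS all 7 were lower in the knock-in. Tnf was at 48.7 and 48.5 in knock-in LPS libraries against 4039 and 3915 in wild-type LPS libraries.

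Among IRF4-linked genes of alternative activation, 5 of 8 in the table could be tested. LPS raised 3 and lowered 1 in the knock-in and raised 2 and lowered 1 in wild type. Kdm6b, a histone demethylase, rose by 0.29 in the knock-in and by 3.01 in wild type, and the mannose receptor gene Mrc1 fell in the knock-in (-1.08) and had a change of 0.04 in wild type. Of 11 genes linked to IRF8 and PU.1, LPS raised 5 and lowered 4 in the knock-in (median 0.14) and raised 8 and lowered 2 in wild type (median 0.34). Cybb, the catalytic subunit of the phagocyte oxidase, fell in the knock-in (-0.40) and rose in wild type (1.09). Pml, the scaffold of nuclear bodies, rose in the knock-in (0.57) and fell in wild type (-0.69).

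Of 15 genes listed as partners and regulators of IRF proteins, LPS raised 10 and lowered 1 in the knock-in (median 0.28). In wild type it raised 6 and lowered 4 (median -0.05). These counts include Ifrd1, whose link to IRF proteins was not checked. Ifrd1 rose by 0.50 in the knock-in and by 2.61 in wild type. The co-repressor genes Irf2bp1 and Irf2bp2 fell in wild type (-1.21 and -1.11) and had changes of -0.07 and 0.07 in the knock-in that did not pass. Batf, whose product pairs with IRF4 and IRF8, rose by 0.73 in the knock-in and by 1.66 in wild type. Peli1, a ubiquitin ligase, rose by 0.28 in the knock-in and by 3.32 in wild type.

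**Figure D4:**
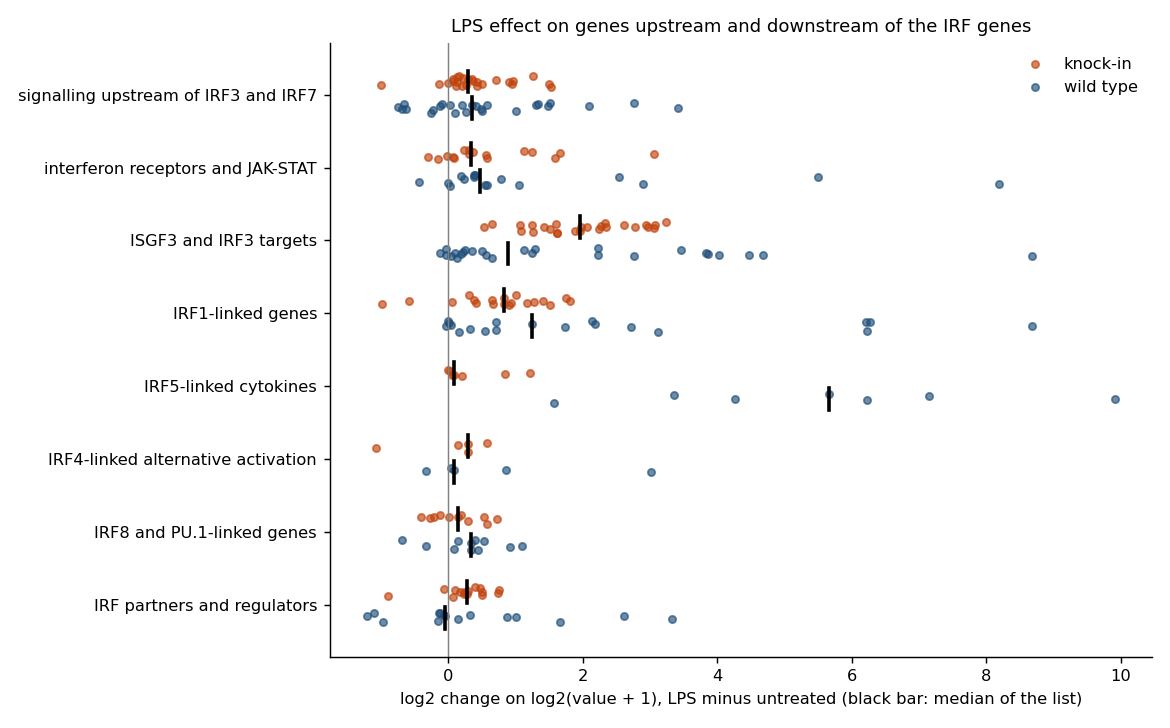
LPS effect (log2 difference of value + 1, LPS minus untreated) for each tested gene of the 8 lists, in knock-in (upper row of each list) and wild type (lower row); black bars are list medians. ISGF3 and IRF3 targets had medians of 1.96 in the knock-in and 0.89 in wild type, and IRF5-linked cytokines had 0.08 in the knock-in and 5.66 in wild type.

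The genes whose levels followed each member most closely over the 8 libraries were sought among 2300 genes with group means that span at least 1 on the log2 scale. This is a description, since the libraries fall into groups. For Irf1 they were Cd40, Traf1 and Fam20c, each at Pearson r = 0.9994. Cd40, a co-stimulatory receptor, averaged 19.6 in the knock-in and 464 in wild type with LPS. Irf5 was followed by Gpr84 (0.9991), Blcap (0.9981) and Lpar1 (0.9979), and Irf4 by Acvr2a (0.9955), Pofut2 (0.9947) and Sema6d (0.9940). The closest to Irf7 were Tor3a (0.9994), Ctss (0.9973) and Il18bp (0.9965), and the closest to Irf9 were Ly6e (0.9993), Phf11a (0.9976) and Cd72 (0.9976). Irf3, Irf8 and Irf2, whose own group means spanned 0.45, 0.27 and 0.16, had lower best values of 0.9829 (Rhou), 0.9546 (Relt) and 0.9116 (Plcxd2).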

How the data were processed

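The deposited table holds a signal for 23366 genes in 8 libraries. It is read here as read counts per gene divided by scaled library sizes, a form of TMM-scaled CPM. Its values were all whole multiples of 1 read within 0.001. That shows a single divisor per library and not how the divisor was set, so TMM is taken and was not checked. The submitters' processing notes list TopHat2 2.0.9, bedtools, edgeR and mm9, with the counting rule, strand and annotation not given in sources used here. GENCODE vM21 on GRCm38 served only for which genes overlap.

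limma 3.58.1 (R 4.3.3; eBayes with a variance trend, 2-sided) was fitted to log2(value + 1) for genes that reached 1 in 2 libraries or more. One model of 4 group means had 4 residual and 19.1 prior degrees of freedom, and p-values were adjusted (Benjamini-Hochberg) over 11919 genes within each of 5 comparisons. The added 1 understates changes of low genes. Floors and bounds cover counting error only. Beside the 8 members, up to 3 called genes per list and comparison could be named, those with the largest change, groups that do not overlap and a higher mean of at least 5. Il23a, Kdm1a, the marker genes and the genes that overlap members are named outside that rule, after their values were seen. Likeness ranked named genes by Pearson r. Alternatives were other pseudocounts, filters and scalings, edgeR 4.0.16 and DESeq2 1.42.0 on the recovered reads, a replicate block, other samples in the fit and leaving out each library. Members and lists were chosen with earlier results of these data known. Some results are not reported here.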

Additional observations from a re-analysis of the deposited data

Results flagged for a closer look

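The LPS effect differed between knock-in and wild type, by limma's test of the interaction with Benjamini-Hochberg adjustment, for 5 of the 8 genes. The difference (knock-in effect minus wild-type effect, log2) was -3.25 for Irf1, -2.92 for Irf4, -0.67 for Irf5, 1.58 for Irf7 and 0.77 for Irf9. Of all genes tested, 31.8% were called in each direction (63.7% in all), so the number of members called is near the background. All 5 values rest on the 2 knock-in LPS libraries, which alone had more than 2 reads of any Y-linked gene measured.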

How the results depend on the processing

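Over 726 combinations of a member result and a setting, 704 stayed called or stayed not called, 12 lost the call and 10 gained it. No called value reversed. Of 40 member results, 32 stayed called or stayed not called under every setting run. Direction was not kept in all of these, since small differences that were not called could change sign. The untreated difference of Irf2 between genotypes, for example, ran from -0.09 to 0.05 over the settings. Quantile normalization called 4 members lower with LPS in wild type in place of 2, and 4 higher in the interaction in place of 2. Leaving out 1 library gave 1 to 2 members lower with LPS in wild type and 0 to 1 higher in the untreated knock-in, where DESeq2 gave 1. Without the first untreated wild-type library, 261 genes were called higher and 220 lower between the untreated genotypes, against 1 and 0 with all libraries, and DESeq2 called 27 and 37. With 5 added in place of 1, the mean log2 ratio of Irf1 to Irf2 was 0.71 in knock-in LPS and 3.87 in wild-type LPS libraries, against 0.73 and 3.95. Of the named list genes, Klf4 (not described above) lost its call in wild type after quantile normalization (-0.14, limma adjusted p = 0.257) and without the second wild-type LPS library (-0.25, 0.105). The cause of these changes was not tested. Replicate numbers showed no clear pairing of the samples (correlations of deviations -0.117 to 0.137 over 9692 genes). Low correlations cannot exclude a pairing, and the labels used do not state one. A replicate block changed no call of a member, with 4 higher and 2 lower with LPS in wild type and 5 and 1 in the knock-in. With 2 libraries a group, the spread rests on the pooled fit, and a library left alone in its group was assumed to vary like the others. Irf4, at 46 to 158 reads outside wild-type LPS, is limited by depth.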
